A study of Mus musculus with 4 samples.

Results

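Pyrimidine metabolism genes, among them the targets and processing enzymes of fluoropyrimidine drugs, were followed in SW620 cells, an established human colon carcinoma line, after exposure to F5446. The genes were TYMS and CDA, together with those of DPYD, UPP1, TYMP, UMPS, TK1, DUT, RRM1 and RRM2 that had a named probe set on the array. Of these 10 genes, 8 were measured, out of 14884 named genes in all; TK1 and TYMP were not analysed here. TYMS and CDA were chosen by their measured log2 fold change between these same arrays, so their values are described without a test. The other 6 were added for their place in the pathway, with earlier results of these arrays known, and whether they changed was asked in a test across all genes.

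There were 2 arrays from cells given 50 nM F5446 for 2 days, a small molecule that the sample records describe as a selective inhibitor of the histone H3 lysine methyltransferase SUV39H1, and 2 arrays from untreated control cells. Both groups were grown in RPMI medium with fetal bovine serum. The records mention no vehicle for the controls, no fluoropyrimidine was given to either group, and a single dose and a single time were studied. The records speak of biological replicates but do not say if separate cultures were used, so a p-value here reflects array-to-array spread, which may be technical. The organism is entered as mouse, whereas SW620 is human and so is the probe set annotation; the data were read as human.

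Pyrimidine nucleotides are made anew from small precursors by way of UMP, or regained from nucleosides and bases by salvage. DNA synthesis also needs thymidylate: ribonucleotide reductase makes deoxynucleotides, dUTPase supplies dUMP, and thymidylate synthase methylates dUMP to dTMP with a folate cofactor. Fluorouracil, a mainstay of colon cancer treatment, is turned into nucleotides by the same enzymes and, as a fluorinated dUMP, blocks thymidylate synthase, while dihydropyrimidine dehydrogenase degrades most of the drug. Cytidine deaminase takes part in activating the prodrug capecitabine and inactivates gemcitabine, an analogue of deoxycytidine.

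TYMS and both subunits of ribonucleotide reductase had less signal in F5446-treated cells, CDA and UPP1 had more, and DUT, UMPS and DPYD differed little. All signals below are log2 signals of 1 probe set, so they compare a gene between arrays and not with another gene. Among the 6 genes tested, UPP1 was higher and RRM1, RRM2 and UMPS were lower at an adjusted p under 0.05 (limma, Benjamini-Hochberg over all genes), while DUT and DPYD did not pass. Of all genes, 40.9% passed, 18.2% higher and 22.7% lower after F5446, so a call alone sets no gene apart. In a bulk sample, fewer cells of a kind and less RNA per cell cannot be told apart.

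TYMS encodes thymidylate synthase, the enzyme that fluorouracil blocks. Its probe set 16850477 read 6.64 and 6.13 in F5446-treated cells, against 10.1 and 10.4 in control cells. The 2 groups lay far apart, and the treated arrays differed from each other more than the control arrays did. The means were 6.39 ± 0.36 with F5446 and 10.3 ± 0.18 in controls (SD, n = 2 each), which is 14.7-fold less signal after F5446, or -3.88 as a log2 fold change. Only 12 of the 14884 genes had a more negative fold change.

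Ribonucleotide reductase joins a large catalytic subunit, encoded by RRM1, to a small subunit that carries the radical, encoded by RRM2. RRM2 (probe set 16877019) read 6.87 and 6.92 with F5446, against 9.62 and 9.51 in controls. It fell 6.37-fold, with a log2 fold change of -2.67 ± 0.080 (SE, limma adjusted p = 4.05e-08). RRM1 (probe set 16721126) read 8.65 and 8.76 with F5446, against 10.4 and 10.4 in controls. It fell 3.21-fold, with a log2 fold change of -1.68 ± 0.064 (SE, limma adjusted p = 1.26e-07). In both genes the treated arrays lay below both controls, by many times the gap between replicates. Such separation of the groups, in either direction, was seen at 66.2% of all genes.

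The 2 subunits differed in the size of their fall. Within each array, RRM2 minus RRM1 was -1.79 and -1.84 with F5446, against -0.77 and -0.87 in controls. Shifting all log2 signals of an array equally, as in centring, does not touch this quantity. The ratio of RRM2 to RRM1 signal was thus 1.99-fold lower after F5446 (log2 difference -0.99), and the groups did not overlap. An exact two-sided permutation test over the arrays gave p = 0.333, the smallest value that 2 arrays against 2 allow. RRM2B, which encodes the alternative small subunit known as a p53 target, read 6.55 and 6.77 with F5446, against 6.72 and 6.65 in controls. Its log2 fold change was -0.03 (95% interval -0.29 to 0.24, limma adjusted p = 0.90).

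DUT encodes dUTPase, which hydrolyses dUTP to dUMP and so feeds thymidylate synthase. Its probe set 16800839 read 4.99 and 5.27 with F5446, against 5.22 and 5.61 in controls, and the groups overlapped. The log2 fold change was -0.28 ± 0.18 (SE), with a 95% interval of -0.69 to 0.12 and a limma adjusted p of 0.27. That interval does not reach a 2-fold fall. The probe set was weak, with a mean signal at percentile 44.8 of all genes, while the RRM1, RRM2 and TYMS probe sets lay at percentiles 95.2, 84.4 and 85.5. A fold change of a weak probe set can understate the true one.

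UMPS encodes the bifunctional enzyme that makes UMP from orotate and can attach ribose phosphate to fluorouracil. Its probe set 16944894 read 8.03 and 7.99 with F5446, against 8.29 and 8.25 in controls. The groups did not overlap, but the difference was small, a log2 fold change of -0.26 ± 0.076 (SE, limma adjusted p = 0.023), or 1.20-fold lower. This call was lost when any 1 of the 4 arrays was left out (adjusted p between 0.061 and 0.13) and after median centring of the arrays (adjusted p = 0.22).

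CDA encodes cytidine deaminase, which turns cytidine and deoxycytidine into uridine and deoxyuridine. Its probe set 16660360 read 11.2 and 11.2 with F5446, against 7.48 and 7.26 in controls. The treated arrays were nearly equal and both lay far above the controls. The means were 11.2 ± 0.0041 with F5446 and 7.37 ± 0.15 in controls (SD, n = 2 each), which is 14.3-fold more signal after F5446, or 3.84 as a log2 fold change. Only 5 genes had a larger fold change.

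UPP1 encodes uridine phosphorylase, which splits uridine into uracil and ribose phosphate and, in reverse, attaches ribose to fluorouracil. Its probe set 17045917 read 8.95 and 8.91 with F5446, against 5.85 and 5.70 in controls. It rose 8.92-fold, with a log2 fold change of 3.16 ± 0.096 (SE, limma adjusted p = 4.13e-08), rank 24 from the top among all genes. Its paralogue UPP2 was weak on every array (2.99 and 2.78 with F5446, 2.84 and 3.14 in controls). The log2 fold change of UPP2 was -0.10 (limma adjusted p = 0.73).

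DPYD encodes dihydropyrimidine dehydrogenase, the first enzyme of uracil and fluorouracil breakdown. Its probe set 16689969 read 2.95 and 3.10 with F5446, against 3.17 and 3.39 in controls. These signals lie below 4.43, the median over all probe sets, on every array and at percentile 12.1 of all genes by mean. The log2 fold change was -0.25 ± 0.17 (SE, 95% interval -0.65 to 0.14, limma adjusted p = 0.31). The arrays do not show whether DPYD is expressed, since the table has no detection calls.

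**Figure D1:**
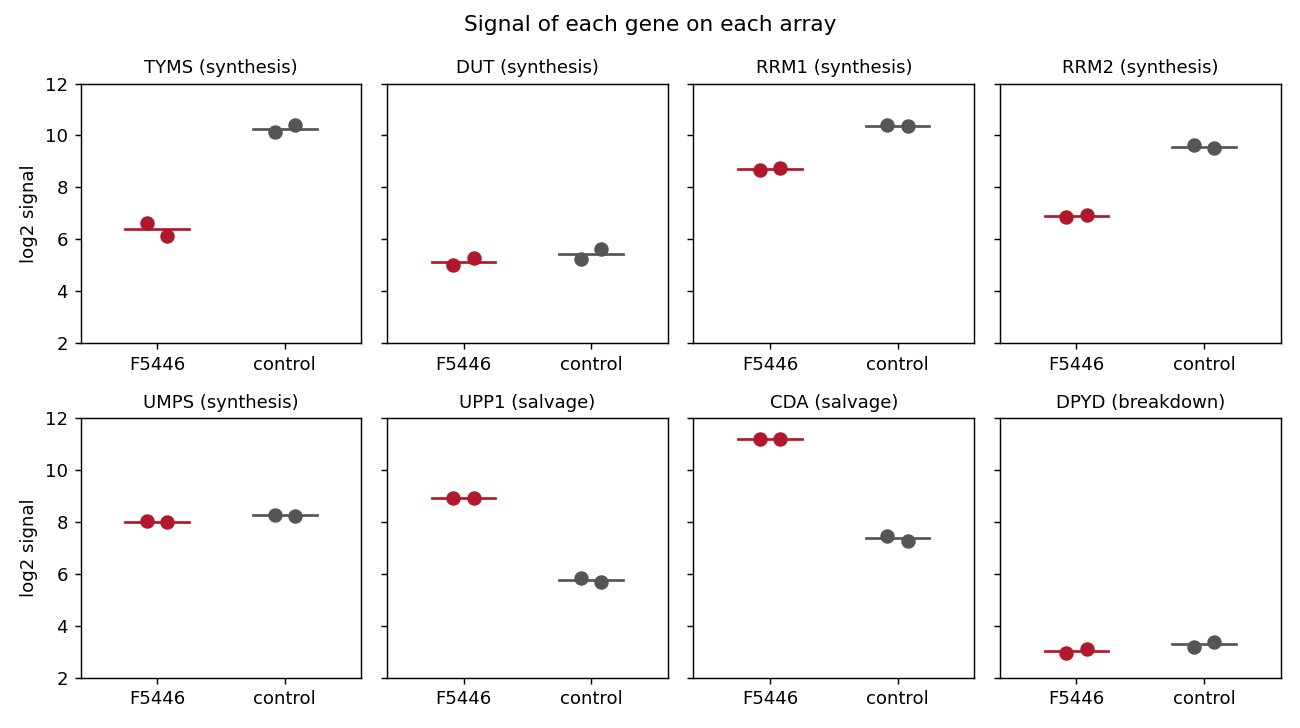
Log2 signal (vertical axis) of each of the 8 genes on each array, with the 2 F5446 arrays at the left and the 2 control arrays at the right of each panel; points are arrays and bars are group means. TYMS, RRM1 and RRM2 are lower with F5446, CDA and UPP1 are higher, and DUT, UMPS and DPYD have nearly equal means.

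By role, the 5 synthesis genes had log2 fold changes between -3.88 and -0.26, with a median of -1.68, and all 5 were negative. The 2 salvage genes measured had 3.16 and 3.84, and the breakdown gene had -0.25. The median of all genes was -0.05, or 0.08 after median centring of the arrays. TYMS and CDA enter these values although they were chosen by their fold change. The central 90% of all genes lay between -1.23 and 1.04. Of the 6 genes tested, RRM1, RRM2 and UPP1 lay outside that range and UMPS, DUT and DPYD inside it, DUT and DPYD with weak probe sets.

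**Figure D2:**
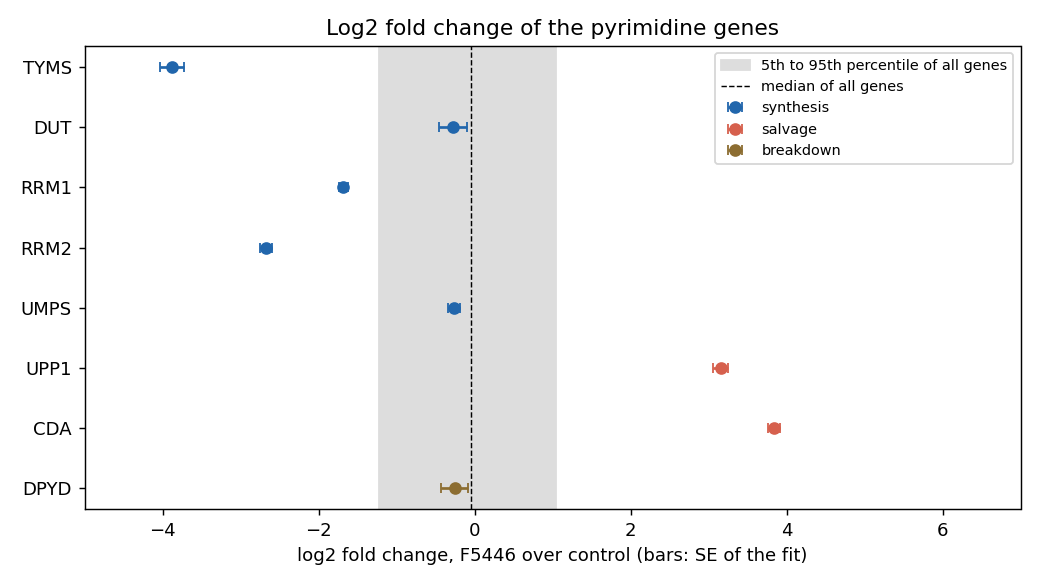
Log2 fold change of F5446 over control (horizontal axis) for the 8 genes, with bars for the SE of the fit and colours for the role; the shaded band is the range from the 5th to the 95th percentile of all genes, -1.23 to 1.04. RRM1 and RRM2 lie left of the band, UPP1 right of it, and DUT, UMPS and DPYD inside it; TYMS and CDA, outside it, were chosen by this value.

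The rest of the pathway was described from lists of pyrimidine, folate and drug-handling genes. Beside the 8 genes, 54 further genes of these lists were measured, and 29 of them fell, 5 rose and 20 did not pass. Their median log2 fold change was -0.31. That is 63.0% called, beside 40.9% of all genes. With either F5446 array left out, 3 rose in place of 5. A list of nucleoside carriers and drug efflux pumps and a list of AID/APOBEC deaminases had no named probe set and were not analysed here.

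On the way to UMP and CTP, the 3 further genes all fell, beside 22.7% of all genes called lower. DHODH, the mitochondrial enzyme that makes orotate, fell 2.74-fold (log2 fold change -1.45 ± 0.087, SE, limma adjusted p = 1.66e-06). CTPS2 and CTPS1, the paralogous CTP synthases, fell 2.22-fold and 1.85-fold. UMPS, which lies between DHODH and the CTP synthases, had the smallest fold change of these 4 genes.

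Among deoxynucleotide genes other than the 4 above, 3 of 5 fell, 1 rose and 1 did not pass. That is 80.0% called, beside 40.9% of all genes. The larger falls were in enzymes that degrade deoxynucleotides. SAMHD1, a hydrolase of deoxynucleoside triphosphates, read 7.08 and 6.89 with F5446, against 9.75 and 9.77 in controls. It fell 6.84-fold (log2 fold change -2.77 ± 0.085, SE, limma adjusted p = 4.37e-08), beside the log2 fold change of -2.67 of RRM2. DCTPP1, a pyrophosphatase that clears dCTP and modified cytosine nucleotides, fell 4.60-fold. Chosen after their values were seen, DTYMK, the thymidylate kinase that follows TYMS, fell 2.30-fold, and DCTD, which deaminates dCMP to dUMP, rose 1.16-fold (limma adjusted p = 0.035). DCTD passed in 5 of 11 alternative settings. Its call was lost, among others, under quantile normalization (adjusted p = 0.23) and without control replicate 1, F5446 replicate 1 or F5446 replicate 2. Of 4 nucleotide kinase genes, 2 fell (50.0% called), NME4 by 1.86-fold and AK3 by 1.33-fold. The other two, NME3 and NME6, had log2 fold changes of -0.32 and 0.24 and did not pass (limma adjusted p = 0.092 and 0.15), though NME6 passed with each array centred (adjusted p = 0.035).

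Of 11 folate genes measured, 6 fell, 1 rose and 4 did not pass. That is 63.6% called, beside 40.9% of all genes. Falls also outnumbered rises over all genes, at 22.7% against 18.2%. SHMT1, the cytosolic serine hydroxymethyltransferase that supplies the cofactor of TYMS, read 5.24 and 5.17 with F5446, against 7.42 and 7.42 in controls. It fell 4.64-fold (log2 fold change -2.21 ± 0.11, SE, limma adjusted p = 5.77e-07). SHMT2, its mitochondrial counterpart, had a log2 fold change of 0.08 (95% interval -0.12 to 0.28, limma adjusted p = 0.54). FOLR1, a folate receptor, fell 3.21-fold. FPGS, which adds the glutamate tail that holds folates in the cell, fell 1.56-fold and AMT, of the glycine cleavage system, 1.62-fold. Chosen after its value was seen, MTHFD1L, a mitochondrial formate producer, rose 1.45-fold.

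Salvage did not move as a block with CDA and UPP1. The 7 further salvage genes had a median of -0.15, and 1 rose, 2 fell and 4 did not pass. That is 42.9% called, near the 40.9% of all genes. DCK, the kinase that phosphorylates deoxycytidine and gemcitabine, read 6.78 and 6.93 with F5446, against 7.99 and 8.11 in controls. It fell 2.29-fold (log2 fold change -1.20 ± 0.098, SE, limma adjusted p = 1.11e-05), opposite in sign to CDA, which acts on the same nucleoside. UCKL1, a uridine kinase homologue, rose 1.35-fold (limma adjusted p = 0.0092). It passed in 7 of 11 alternative settings, and its call was lost, among others, without control replicate 2 or without either F5446 array. UPRT, a homologue of uracil phosphoribosyltransferase, had a log2 fold change of -0.08 (limma adjusted p = 0.66).

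Of 22 listed genes for breakdown and nucleotidases, 11 were measured, and none of the NT5 nucleotidase genes was among them. Of the 10 beside DPYD, 2 rose, 3 fell and 5 did not pass. That is 50.0% called, beside 40.9% of all genes. ABAT, the transaminase that acts on beta-alanine, the end product of uracil breakdown, and on GABA, read 7.40 and 7.28 with F5446, against 5.48 and 5.66 in controls. It rose 3.40-fold (log2 fold change 1.77 ± 0.12, SE, limma adjusted p = 3.27e-06). Chosen after its value was seen, DPYS, the dihydropyrimidinase that follows DPYD, had a log2 fold change of -0.30 ± 0.16 (SE, limma adjusted p = 0.19). Among nucleoside di- and triphosphate hydrolases, ENTPD4 rose 1.86-fold, while ENTPD8 and ENTPD5 fell 1.63-fold and 1.36-fold. ENTPD5 passed in 5 of 11 alternative settings, and its call was lost when any 1 array was left out.

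Genes for the excision of uracil and fluorouracil from DNA include glycosylases and the enzymes that complete the repair. Of 8 measured, 6 fell and 2 did not pass. That is 75.0% called, beside 40.9% of all genes. Among the falls, those of APEX1 and XRCC1 were small, with log2 fold changes of -0.24 and -0.29. UNG, the main uracil glycosylase, read 6.78 and 6.84 with F5446, against 9.37 and 9.36 in controls. It fell 5.88-fold (log2 fold change -2.56 ± 0.077, SE, limma adjusted p = 4.13e-08). The flap endonuclease gene FEN1 fell 5.80-fold and the endonuclease gene APEX2 1.94-fold. The other glycosylases changed less. SMUG1 fell 1.42-fold (limma adjusted p = 0.0075), a call lost without control replicate 1 or F5446 replicate 1 (adjusted p = 0.065 and 0.083). TDG and MBD4 had log2 fold changes of -0.12 and -0.23 (limma adjusted p = 0.26 and 0.058), and MBD4 passed under quantile normalization (0.027) and when genes with a mean signal up to 4.43 were dropped (0.040).

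Genes that supply phosphoribosyl pyrophosphate, the ribose donor of UMPS and of fluorouracil activation, fell in part. PRPS2 fell 2.81-fold (log2 fold change -1.49 ± 0.059, SE, limma adjusted p = 1.60e-07) and PRPS1 1.64-fold. PRPSAP2 and PRPS1L1 fell 1.30-fold and 1.41-fold, but neither passed after centring (adjusted p = 0.15 and 0.12). PRPSAP2 passed in 4 of 11 alternative settings, and its call was lost when any 1 array was left out. PRPS1L1 passed in 5 of the 10 that could be run, and its call was lost without control replicate 2 or either F5446 array. CES1, a carboxylesterase that takes the first step with capecitabine, did not pass (limma adjusted p = 0.47), and its 2 probe sets disagreed in sign, at -0.16 and 0.20.

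**Figure D3:**
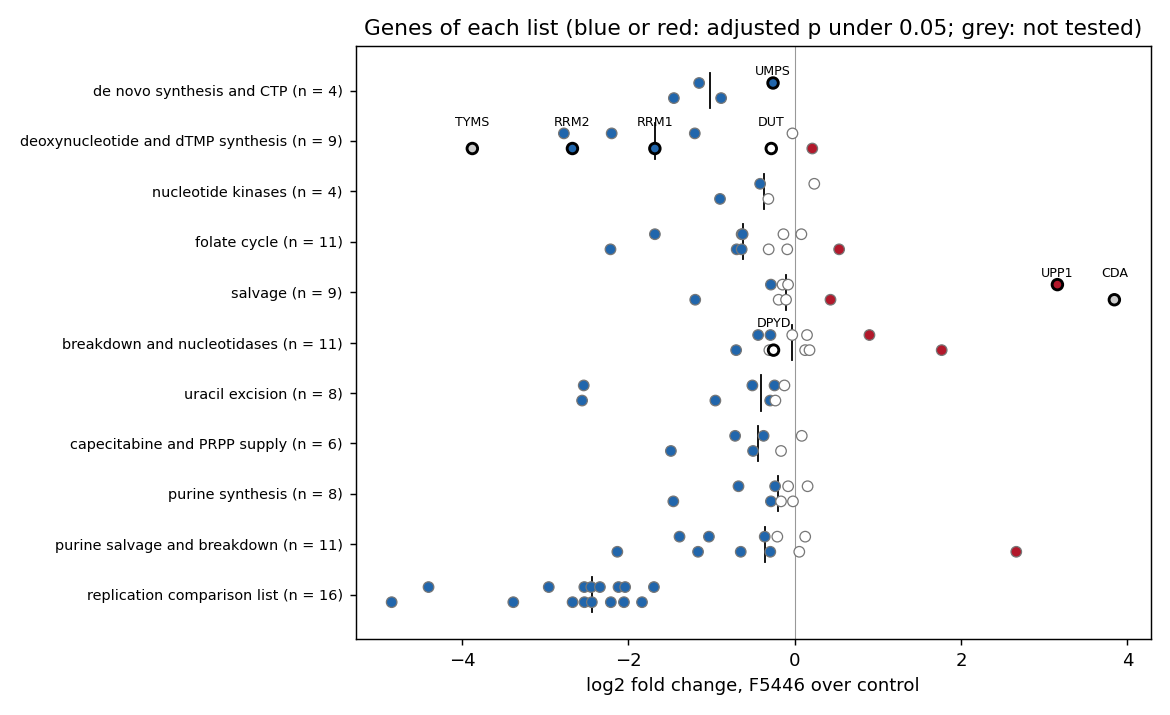
Log2 fold change of F5446 over control (horizontal axis) for every measured gene of each list, with a vertical bar at the list median; blue and red genes passed at an adjusted p under 0.05, white ones did not, TYMS and CDA in grey were not tested, and thick outlines mark the 8 genes. UPP1 and CDA stand alone at the right of their list, while the replication genes in the bottom line all lie below -1.69.

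The genes of purine metabolism showed no similar pair of rises. CDA was chosen by its fold change and UPP1 was added with earlier results known, so this absence was not a test. Of 8 purine synthesis genes 4 fell and 4 did not pass, with PFAS falling 2.75-fold and a median of -0.20. That is 50.0% called, beside 40.9% of all genes. The falls of PPAT and ATIC were small, at 1.22-fold and 1.18-fold, and passed in 5 and 6 of 11 alternative settings. Of 11 purine salvage and breakdown genes 7 fell and 1 rose, or 72.7% called. ADA, the adenosine deaminase and thus the purine counterpart of CDA, fell 4.38-fold (log2 fold change -2.13 ± 0.088, SE, limma adjusted p = 2.02e-07). PNP, the purine nucleoside phosphorylase, fell 2.24-fold, where UPP1, which splits uridine, rose. AMPD3, an AMP deaminase, was the one that rose, by 6.33-fold.

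All 16 measured members of a list of replication and proliferation genes fell, with log2 fold changes between -4.84 and -1.69 and a median of -2.44. Of all genes, 22.7% were called lower. TYMS had a more negative fold change than 14 of the 16, but it was chosen by that value, so its place is no test. RRM2 had a more negative fold change than 12. DUT and UMPS lay above all 16. RRM1 did so only narrowly, at -1.68 ± 0.064 beside -1.69 ± 0.085 (SE) for the replication gene CDT1. The part of proliferation in the signals of TYMS, RRM1 and RRM2 was not tested. Over the 4 arrays, after each gene's own mean was subtracted, the nearest genes to TYMS were BIRC5, CCNA2 and PBK, at Euclidean distances of 0.097, 0.11 and 0.17 log2 units. These encode survivin, cyclin A2 and a mitotic kinase. The nearest to CDA were CD68, CREBRF and HIVEP2, at distances of 0.19, 0.30 and 0.32. CD68 encodes a lysosomal glycoprotein. The second, weak probe set of HIVEP2 did not follow CDA, with a log2 fold change of -0.09. With 4 arrays, such likeness mainly reflects an equal fold change.

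SUV39H1 itself had less signal after F5446, at 7.47 and 7.36 against 9.12 and 9.17 in controls (log2 fold change -1.73 ± 0.079, SE, limma adjusted p = 3.44e-07). A second, weaker probe set of SUV39H1 was also lower, with a smaller log2 fold change of -1.19. An inhibitor of the enzyme need not lower its mRNA, so these values do not check the labels. Epithelial markers differed in signal, with EPCAM between 10.2 and 11.1 and KRT18 between 10.7 and 11.8 over the 4 arrays. KRT20 stayed between 3.08 and 3.70. CDX1 and GPA33 were also weak, with means of 4.78 and 5.15 with F5446, against 4.99 and 5.29 in controls. EPCAM and KRT18 fell 1.69-fold and 2.16-fold. Others changed more: LGR5, MYB and VIL1 fell 23.9-fold, 21.6-fold and 14.7-fold, and CEACAM5 rose 3.80-fold. The summed log2 signal of 12 epithelial markers was 80.1 to 80.3 with F5446 and 93.9 in both controls, and 7 fell and 2 rose. That is 75.0% called, beside 40.9% of all genes. Of the immune markers 3 were measured: CD68 read 11.5 and 11.5 with F5446, against 7.83 and 7.77 in controls, LYZ fell 3.45-fold, and CD14 lay between 3.61 and 3.79. Of the stromal and endothelial markers 4 were measured, and LUM read 4.20 and 3.83 with F5446, against 7.04 and 7.03 in controls, while DCN lay between 1.90 and 2.24. Their summed signals were 20.1 to 20.2 and 14.0 to 14.3 with F5446, against 18.0 to 18.3 and 16.6 in controls. PTPRC and the collagen genes were not analysed here, and the part of such markers in the pyrimidine genes was not tested.

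**Figure D4:**
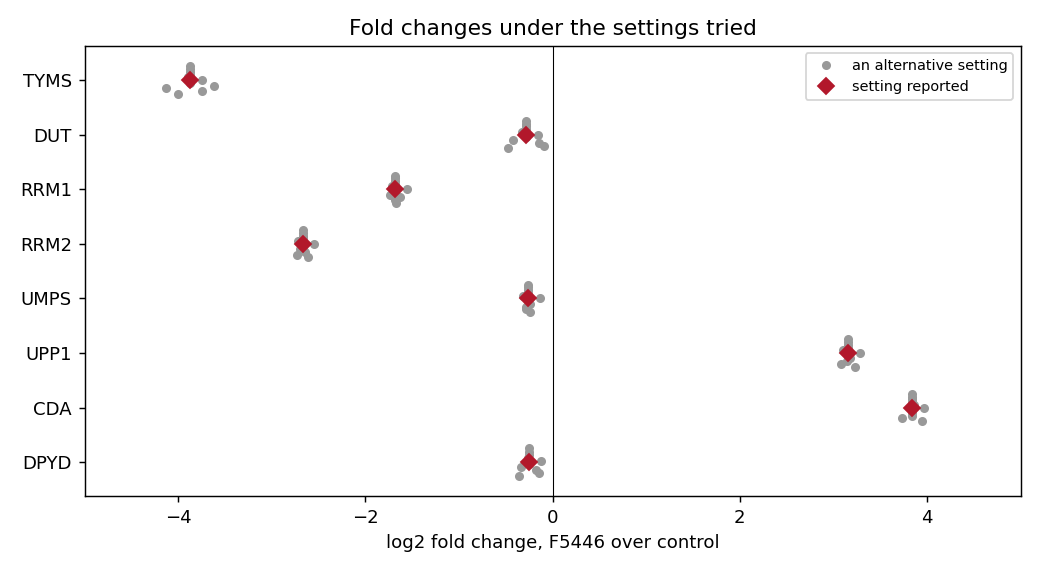
Log2 fold change of F5446 over control (horizontal axis) for each of the 8 genes under the reported setting (diamond) and the alternative settings (grey points). The points of TYMS stay between -4.13 and -3.62, those of UPP1 between 3.08 and 3.28, and those of DUT between -0.48 and -0.09.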

How the data were processed

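Values were deposited for 53617 probe sets on 4 arrays. The authors' values run from 0.71 to 13.8, which lies above 11.1, the natural logarithm of a 16-bit scanner's range, and under its log2 of 16, so they were read as deposited log2 signal; the scale is inferred. Partek is named, per the submitters' processing notes; the handling of background, scaling and probe set summary is otherwise not stated. Platform annotation named 16098 probe sets, covering 14884 genes. A gene was represented by its probe set of highest mean over the 4 arrays; each of the 8 genes described had 1. Genomic positions were not used here.

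Group was the single term of a linear model for every gene, using limma 3.58.1 (lmFit, then eBayes with trend) under R 4.3.3. P-values are two-sided, adjusted by Benjamini-Hochberg over all named genes, with a threshold of 0.05. A simulation with 14884 genes held 100 genes shifted by 1 log2 unit and 100 shifted by 2 units. Of these sets, 47% and 85% were called, and 5 of all 137 calls were false. Far more genes passed in the measured arrays (40.9%), and the adjustment depends on that share. The simulated percentages therefore do not tell how many true changes the reported test found or missed.

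The genes named are those of the pathway under study, SUV39H1, up to 4 genes per list with the largest changes that passed and did not overlap, up to 2 with the smallest changes among those not called, and the 3 nearest genes to TYMS and to CDA. Members and lists were chosen with earlier results of these data known. Precision is limited by the number of arrays, 2 per group. Alternatives were leaving out each array, a replicate block, centring, quantile normalization, leaving out genes with a mean signal up to 4.43 (dim genes), no intensity trend, the mean of probe sets, and testing all probe sets.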

Additional observations from a re-analysis of the deposited data

How the results depend on the processing

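Under the 11 alternatives, RRM1, RRM2 and UPP1 passed every time, with log2 fold changes of -1.73 to -1.55, -2.73 to -2.55 and 3.08 to 3.28, and DUT passed in none (adjusted p between 0.11 and 0.78). DPYD passed in none of the 10 that could be run; it is one of the dim genes, so leaving those out gave no value. UMPS passed in 4 of 11. Its log2 fold change was -0.26 without an intensity trend (adjusted p = 0.089) and with all probe sets tested (0.084), -0.13 with each array centred (0.22), and -0.28 to -0.24 with 1 array left out. Centring raised all fold changes by 0.13, and the median of all genes to 0.08. It gave 3.97 for CDA, -1.55 for the median of the synthesis genes and 3.28 for that of the salvage and breakdown genes. Leaving out dim genes, DPYD among them, gave 3.50 for the last, against 3.16 as reported. Without 1 array, TYMS ranged from -4.13 to -3.62 and CDA from 3.74 to 3.95. Of the 54 further pathway genes, 3 to 6 were called higher and 23 to 30 lower over the alternatives, beside 2069 to 3420 and 2580 to 3615 of all 14884. The higher count, 5 as reported, was 3 to 4 with 1 array left out and 3 with all probe sets tested. Same-numbered arrays did not deviate together (correlation 0.044 across genes), so no pairing by number was seen. With 2 arrays per group, this cannot exclude that the arrays were paired. With the replicate number as a block, RRM2 was at -2.67 and UPP1 at 3.16, and both passed. A lone array was assumed to vary like the other group. With 2 arrays per group and no detection calls, changes of weak probe sets such as DUT and DPYD are poorly limited.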
